A study of Mus musculus with 24 samples.

Results

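The data describe 10 genes for enzymes of sterol synthesis, Hmgcs1, Idi1, Fdps, Fdft1, Sqle, Lss, Cyp51, Nsdhl, Sc5d and Dhcr7, in ovaries of the mouse lines FL1 and DUKsi. The genes were taken by name, and not by a rule on their values, from the pathway that makes cholesterol out of acetyl-CoA. Earlier results of these data were known when the genes were chosen. They were measured by 23 of the 22626 probe sets tested, and they are 10 of the 12394 genes that have a probe set of their own. A probe set is a group of short oligonucleotides on the array whose combined brightness, here called the signal, stands for the amount of a transcript. FL1 was selected up to generation 130 for an index of litter size and litter weight at birth. The control line DUKsi goes back to the same founders, had no selection and was kept by brother-sister mating. Effects of selection, of inbreeding and of drift between the lines cannot be told apart in this design. Ovaries of virgin females, 6 to 9 weeks old by the methods, were taken at metestrus, the stage of the cycle that follows ovulation. RNA of 30 animals per line was combined into 6 pools per line, and each pool was hybridized to 2 Affymetrix mouse expression arrays. The labels state 6 animals per pool and the methods 5. Pools and not animals are the replicates throughout, and their number limits the precision.

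Cholesterol is built from acetyl-CoA by way of mevalonate and isoprenoid units, which are joined to squalene. Squalene is oxidized and closed into the ring system of lanosterol, and lanosterol is then trimmed and rearranged to cholesterol. Much of the regulation is at the level of transcription, where the SREBP factors raise most genes of the pathway when sterols in the membrane of the endoplasmic reticulum are low. In the ovary, cholesterol is the starting material of all steroid hormones, and the corpus luteum, which forms from the ruptured follicle, uses it for progesterone. Rodent luteal cells take much of their cholesterol from lipoproteins and can also make it themselves. Lanosterol demethylation by CYP51 also yields a meiosis-activating sterol that has been studied in follicular fluid and oocytes.

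Promoter sequences are shown for 4 of the enzymes because SREBP is known to act near the start of transcription together with the CCAAT-binding factor NF-Y. Among the 7 enzymes with a window, Hmgcs1 is shown as the only one that held the letters of a sterol regulatory element. Sc5d and Dhcr7 are shown as the genes with the largest fold changes, and Lss as the gene with the smallest. Each sequence is the 250 bases before a start of transcription, 5′ to 3′ on the strand of the gene, from RefSeq on GRCm38.p6. Capitals mark CCAAT letters in either orientation (CCAAT or ATTGG) and the sterol regulatory element TCACNCCAC in either orientation. The windows are Hmgcs1 at chr13:119690101-119690350 on the plus strand, Sc5d at chr9:42264301-42264550 on the minus strand, Dhcr7 at chr7:143829964-143830213 on the plus strand and Lss at chr10:76531355-76531604 on the plus strand. For Dhcr7, RefSeq gives 3 starts, and the one shown is the only one whose window held CCAAT letters.
Hmgcs1: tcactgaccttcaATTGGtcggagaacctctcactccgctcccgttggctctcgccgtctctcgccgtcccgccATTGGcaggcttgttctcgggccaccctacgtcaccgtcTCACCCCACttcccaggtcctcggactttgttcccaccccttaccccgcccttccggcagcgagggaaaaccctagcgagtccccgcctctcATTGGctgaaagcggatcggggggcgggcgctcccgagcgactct
Sc5d: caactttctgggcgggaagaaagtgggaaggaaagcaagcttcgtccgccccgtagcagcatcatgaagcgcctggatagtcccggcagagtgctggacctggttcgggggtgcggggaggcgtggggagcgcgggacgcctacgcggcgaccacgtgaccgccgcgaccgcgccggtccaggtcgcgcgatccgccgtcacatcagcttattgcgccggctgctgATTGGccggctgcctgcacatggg
Dhcr7: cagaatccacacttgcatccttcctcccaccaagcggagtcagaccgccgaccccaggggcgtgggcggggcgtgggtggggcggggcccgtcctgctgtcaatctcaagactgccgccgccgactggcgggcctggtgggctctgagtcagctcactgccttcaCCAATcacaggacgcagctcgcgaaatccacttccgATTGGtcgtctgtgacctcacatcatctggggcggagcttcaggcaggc
Lss: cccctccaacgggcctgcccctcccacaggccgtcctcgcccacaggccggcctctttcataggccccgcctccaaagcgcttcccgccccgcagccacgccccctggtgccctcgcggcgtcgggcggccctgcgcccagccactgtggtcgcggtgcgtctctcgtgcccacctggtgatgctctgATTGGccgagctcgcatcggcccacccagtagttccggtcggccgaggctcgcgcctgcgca

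By the annotation the genes are spread over the genome, with Hmgcs1 and Idi1 on chromosome 13, Fdps on 3, Fdft1 on 14, Sqle on 15, Lss on 10, Cyp51 on 5, Nsdhl on X, Sc5d on 9 and Dhcr7 on 7. Windows were found for 7 of the 10 enzymes, 9 windows in all. Fdps, Fdft1 and Sqle had no window, so their promoters were not searched. CCAAT letters were in 7 of these 9 windows, against 33.8% of all 32851 promoter windows in the same table. In Hmgcs1 they stood at 237, 176 and 45 bases before the start, and in Sc5d at 24 and in Lss at 62. The sterol regulatory element TCACNCCAC was in 1 of the 9 windows, that of Hmgcs1, where the letters TCACCCCAC began 137 bases before the start. Of all windows 1.05% held it. GC boxes (GGGCGG or CCGCCC), bound by SP1, were in 8 of 9 windows and in 32.7% of all. The E-box CACGTG was in 2, in Sc5d and in another Dhcr7 window, against 6.02% of all. The letters AAGGTCA or TGACCTT, which the steroidogenic NR5A receptors can bind, were in 2, in Hmgcs1 and the remaining Dhcr7 window, against 4.08% of all. A match of letters is not evidence of binding.

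Each gene is described by its brightest probe set, by mean over the 12 pools, of those annotated to no other gene, and its further probe sets are given after it. The words rose and fell are kept for genes with an adjusted p under 0.01 in limma, with Benjamini-Hochberg adjustment over all 22626 probe sets. Fold changes are FL1 over DUKsi, and the log2 fold change comes from the fit on log2 signals. By this rule 4 of the 10 enzymes rose in FL1, Hmgcs1, Sqle, Sc5d and Dhcr7, none fell, and 6 did not pass. Among all probe sets 1.83% rose and 1.55% fell, 413 and 351 in number and 3.38% in either direction, and scaling the arrays to the same median gave 636 and 229. The log2 fold change was above 0 for all 10 enzymes, with a range of 0.26 to 1.34 and a median of 0.57. Over all probe sets tested the median was -0.07, and 8665 of 22626 were above 0. At an unadjusted p under 0.05, 9 of the 10 were higher in FL1 and 0 lower, against 8.25% and 11.5% of all probe sets, and limma without a trend of the variance passed 1, Sc5d. In 2 enzymes, Hmgcs1 and Sc5d, every FL1 pool had a higher signal than every DUKsi pool, which was the case for 2.24% of all probe sets. In none was every FL1 pool below, as in 2.39% of all. In RNA of whole ovaries, more cells of a type and more RNA per cell cannot be told apart.

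**Figure D1:**
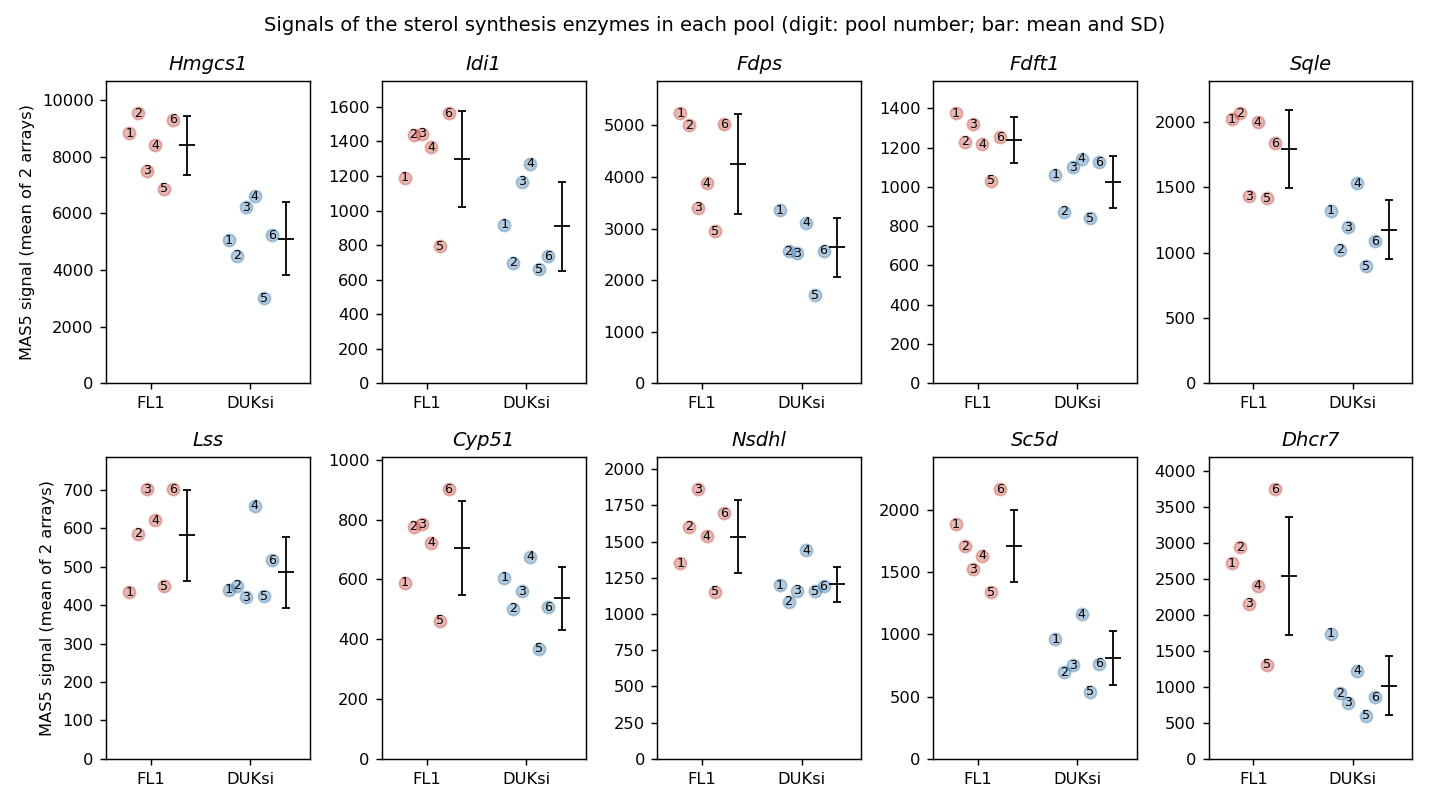
Signal of each of the 10 enzymes (linear scale, brightest probe set) in the 6 FL1 pools, left, and the 6 DUKsi pools, right, with each pool as a point and the mean and SD as bars. The lines do not overlap for Hmgcs1 and Sc5d, and the FL1 mean is the higher one in every panel.

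The first enzymes make the isoprenoid units. Hmgcs1 is the cytosolic HMG-CoA synthase, which makes the substrate of HMG-CoA reductase. Its lowest, median and highest pool signals were 6868, 8611 and 9527 in FL1, against 3005, 5133 and 6600 in DUKsi. The lowest FL1 pool thus lay above the highest DUKsi pool. The mean was 8403 ± 1039 over the FL1 pools and 5099 ± 1285 over the DUKsi pools (SD, n = 6 each), a log2 fold change of 0.76 (SE 0.153, 95% interval 0.43 to 1.08, limma adjusted p = 0.00579). The call was lost when any of FL1 pools 1, 2, 4 and 6 or DUKsi pools 1, 2 and 6 was left out, with a log2 fold change of 0.72 to 0.77 and an adjusted p of 0.0124 to 0.0174. The other 3 probe sets of Hmgcs1 had log2 fold changes of 0.55, 0.42 and 0.66 (limma adjusted p = 0.0477, 0.144 and 0.0321), so that all 4 were above 0 and 1 passed.

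Idi1 isomerizes isopentenyl diphosphate into the form from which chains are started. In FL1 its lowest, median and highest signals were 793, 1403 and 1563, and in DUKsi 659.9, 826 and 1272. The lines overlapped, and the log2 fold change of 0.53 (SE 0.183, 95% interval 0.14 to 0.92, limma adjusted p = 0.104) did not pass. The dimmer probe set of Idi1 gave 0.31 (adjusted p = 0.452). Fdps joins the units to farnesyl diphosphate, the branch point towards sterols, dolichol, ubiquinone and prenylated proteins. It had 2947.5, 4442 and 5233 as lowest, median and highest signal in FL1, against 1704, 2565 and 3351 in DUKsi. In 34 of the 36 pairs of an FL1 pool with a DUKsi pool the FL1 signal was the higher one. The log2 fold change of Fdps, 0.69 (SE 0.165, 95% interval 0.34 to 1.04), had an adjusted p of 0.0185 in limma and did not pass. It passed when FL1 pool 5 was left out, with a log2 fold change of 0.78 and an adjusted p of 0.007. Another probe set of Fdps was near the bottom of the scale, at 7.9 in FL1 and 8.83 in DUKsi, and carries no usable difference.

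Fdft1, Sqle and Lss make squalene and close it into lanosterol. Fdft1, squalene synthase, is the first enzyme committed to sterols. Its lowest, median and highest signals were 1032, 1241 and 1375 in FL1, against 842, 1081 and 1144 in DUKsi, and the lines overlapped. The log2 fold change was 0.28 (SE 0.0935, 95% interval 0.08 to 0.48, limma adjusted p = 0.0957). The 4 probe sets of Fdft1 did not run the same way. A second bright one gave 0.35 (adjusted p = 0.0327), while 2 dimmer ones gave -0.76 and -0.63 (adjusted p = 0.243 and 0.347), with means of 105 and 32.8 in FL1, against 148 and 55.1 in DUKsi. The mean over all 4 probe sets was -0.19 (adjusted p = 0.492), so the direction of Fdft1 rests on its bright probe sets.

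Sqle, squalene epoxidase, adds the oxygen that becomes the hydroxyl group of cholesterol and is regarded as a rate-limiting step beside HMG-CoA reductase. It had 1418, 1919 and 2067 as lowest, median and highest signal in FL1, against 896, 1141 and 1532 in DUKsi. The lines overlapped by 1 DUKsi pool, number 4, and FL1 was higher in 34 of 36 pairs. The mean of Sqle was 1796 ± 298 over the FL1 pools and 1176 ± 228 over the DUKsi pools (SD, n = 6 each), a log2 fold change of 0.62 (SE 0.131, 95% interval 0.34 to 0.90, limma adjusted p = 0.00845). This call was close to the threshold. It was lost when any of FL1 pools 1, 2, 4 and 6 or DUKsi pools 1, 2, 3, 5 and 6 was left out, with a log2 fold change of 0.54 to 0.65 and an adjusted p of 0.0105 to 0.0246. Lss, lanosterol synthase, closes the rings. Its brightest probe set had 433.5, 603 and 701 as lowest, median and highest signal in FL1, against 419.8, 445 and 659 in DUKsi, with a log2 fold change of 0.26 (SE 0.143, 95% interval -0.05 to 0.56, limma adjusted p = 0.348). The interval includes 0. Its other probe sets gave 0.46 (adjusted p = 0.188) and, with means of 65.7 in FL1, against 68.9 in DUKsi, -0.11.

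Cyp51, Nsdhl, Sc5d and Dhcr7 turn lanosterol into cholesterol. Cyp51, the lanosterol demethylase, had 462.5, 749.65 and 902 as lowest, median and highest signal in FL1, against 368, 534 and 676 in DUKsi. Its log2 fold change was 0.39 (SE 0.162, 95% interval 0.05 to 0.73, limma adjusted p = 0.187), and its dimmer probe sets gave 0.27 and 0.38. None of the 3 passed. Nsdhl, a dehydrogenase needed to remove the methyl groups at carbon 4, is encoded on the X chromosome. It had 1154, 1569 and 1862 in FL1, against 1083.5, 1176 and 1441 in DUKsi, with a log2 fold change of 0.34 (SE 0.105, 95% interval 0.11 to 0.56, limma adjusted p = 0.0689). The highest DUKsi value was that of pool 4, and the next one was 1197.5.

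Sc5d, sterol C5-desaturase, makes 7-dehydrocholesterol, and Dhcr7 reduces it to cholesterol. They had the largest fold changes of the 10 enzymes. The lowest, median and highest signals of Sc5d were 1339, 1669.9 and 2167 in FL1, against 541, 759.6 and 1162 in DUKsi. All FL1 pools lay above all DUKsi pools. The mean of Sc5d was 1709 ± 289 over the FL1 pools and 813 ± 218 over the DUKsi pools (SD, n = 6 each), a ratio of 2.10 and a log2 fold change of 1.10 (SE 0.156, 95% interval 0.76 to 1.43, limma adjusted p = 0.000319). The study's own list of differing transcripts also holds this probe set, chosen on the same samples, so its difference is not independent evidence. A second probe set of Sc5d, with a mean of 227 in FL1, against 216 in DUKsi, gave 0.10 (adjusted p = 0.760), and why the pair differ was not tested.

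Dhcr7 had 1308, 2559 and 3747 as lowest, median and highest signal in FL1, against 603, 881 and 1738 in DUKsi. The FL1 signal was higher in 35 of the 36 pairs, with the lowest FL1 pool, number 5, below the highest DUKsi pool, number 1. The mean was 2545 ± 817 over the FL1 pools and 1018 ± 408 over the DUKsi pools (SD, n = 6 each), a ratio of 2.50 and a log2 fold change of 1.34 (SE 0.248, 95% interval 0.81 to 1.87, limma adjusted p = 0.00299). The call of Dhcr7 was lost in limma without a trend of the variance (adjusted p = 0.0153). Dhcr7 has no second probe set, and neither have Sqle and Nsdhl. Of the 6 enzymes up to lanosterol 2 rose, with a median log2 fold change of 0.57. Of the 4 after lanosterol 2 rose, with a median of 0.74. These 4 were Cyp51 (0.39), Nsdhl (0.34), Sc5d (1.10) and Dhcr7 (1.34), none of them close to that median.

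**Figure D2:**
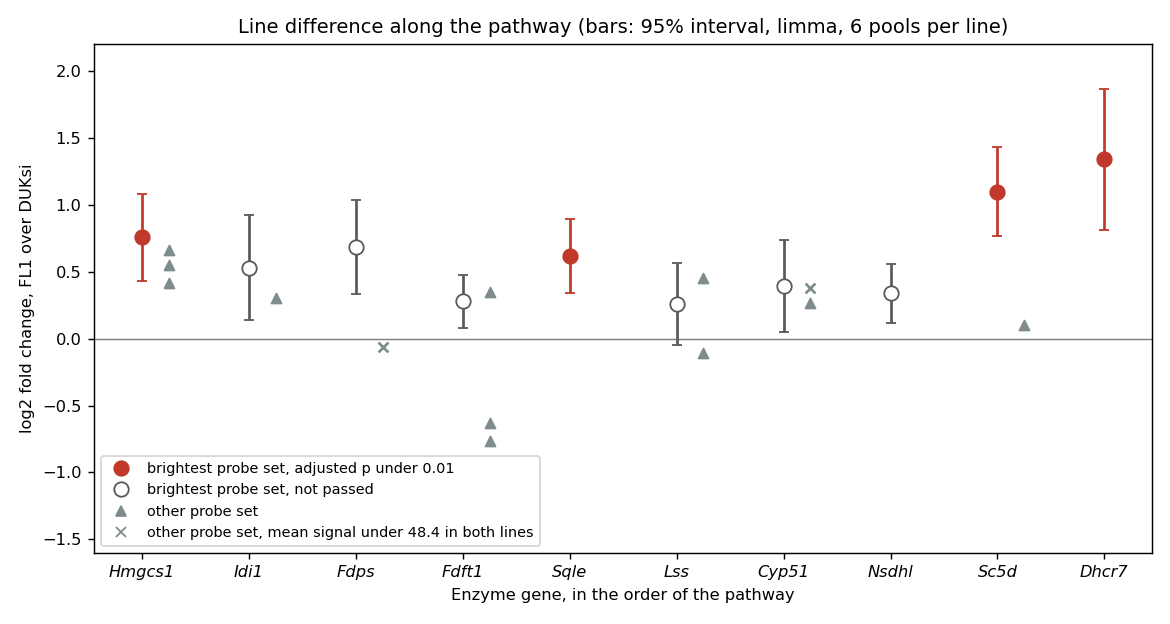
Log2 fold change (FL1 over DUKsi) of all 23 probe sets of the enzymes, in the order of the pathway, with the 95% interval for the brightest probe set of each gene and filled circles where the adjusted p was under 0.01. Circles are the brightest and triangles the further probe sets, with crosses where the mean signal was under 48.4 in both lines. All 10 circles lie above 0, and 4 of the further probe sets lie below it.

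Over all 23 probe sets, 19 had a log2 fold change above 0, 4 passed and none fell, with a median of 0.38. The 4 that passed were all the brightest probe set of their gene. Of the 13 others 9 were above 0 and none passed in limma, with a median of 0.31. At an unadjusted p under 0.05, 5 of these 13 were higher and 1 lower, a dim probe set of Fdft1, against 8.25% and 11.5% of all probe sets. Probe sets of a gene are measured on the same RNA and are not replicates. The arrays of a pool differed little for the brightest probe sets, by a median of 0.0386 to 0.151 on the log2 scale. Between pools the SD on that scale was 0.142 to 0.514 in FL1 and 0.139 to 0.536 in DUKsi.

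Within each line, the same pools were the lowest or the highest for most of the enzymes. In FL1, pool 5 was the lowest of the 6 pools for 9 of the 10 enzymes, all but Lss, whose lowest pool was 1. In DUKsi, pool 5 was the lowest for 8 of 10, all but Lss and Nsdhl, and pool 4 was the highest for 8 of 10, all but Fdps and Dhcr7. For comparison, of the 11313 probe sets with the higher mean signals, FL1 pool 5 was lowest in 10.2%, DUKsi pool 5 lowest in 13.8% and DUKsi pool 4 highest in 17.5%. The mean deviation from the mean of the own line, over the 10 enzymes, was -0.46 on the log2 scale in FL1 pool 5, with a range of -0.89 to -0.26, and -0.43 in DUKsi pool 5. It was 0.38 in DUKsi pool 4 and 0.26 in FL1 pool 6. The sample titles and the methods do not say whether pools that share a number were matched between the lines. Without both pools numbered 5, an omission chosen after the values were seen, 4 enzymes passed, with Fdps (adjusted p = 0.00718) in place of Sqle (adjusted p = 0.0112).

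**Figure D3:**
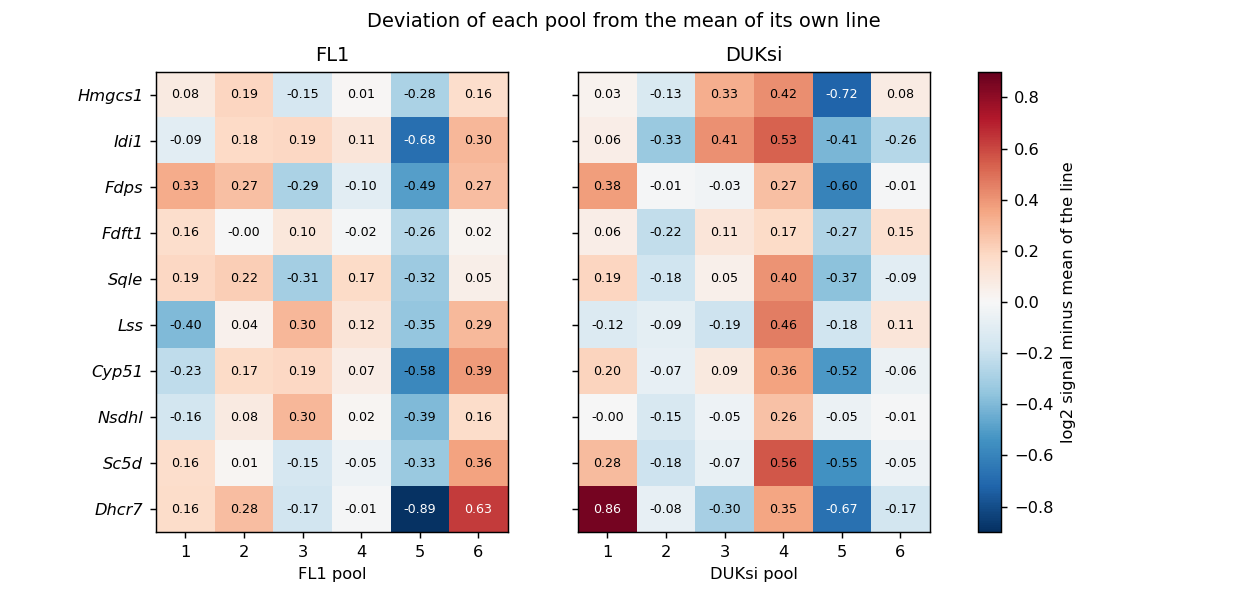
Deviation of each enzyme (rows, in pathway order) from the mean of its own line on the log2 scale, for the 6 FL1 pools on the left and the 6 DUKsi pools on the right. FL1 pool 5 is lowest for 9 of 10 enzymes and DUKsi pool 5 for 8 of 10.

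The summed signal of the 10 enzymes was 17771 to 28184 in FL1 pools, against 10197 to 18826 in DUKsi pools. Markers of luteal cells moved in the same direction. Of 8 listed, 6 were measured and 2 rose, against 1.83% of all probe sets. All 6 had a log2 fold change above 0, with a median of 1.28. All 6 were higher at an unadjusted p under 0.05, against 8.25% of all probe sets. Their summed signal was 40501 to 46324 in FL1, against 23416 to 32372 in DUKsi. Cyp11a1, which cuts cholesterol to pregnenolone, rose by 0.98 on the log2 scale (limma adjusted p = 0.000376), and Ptgfr, the luteolytic prostaglandin receptor, by 1.82 (adjusted p = 0.00373). Star, which brings cholesterol into mitochondria, had 1.59 and an adjusted p of 0.0333 for its brightest probe set, while the next one passed, with 1.61 and 0.00765. Within the lines the sum of the luteal markers was also lowest in both pools numbered 5, at 40501 in FL1, beside 40558 in FL1 pool 1, and at 23416 in DUKsi. The part of luteal content in the enzymes' difference was not tested.

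Markers of other cell types were also compared between the lines, where 1.83% of all probe sets rose and 1.55% fell. Of 6 measured granulosa cell markers 1 fell (Inhba, -0.52 on the log2 scale), and their sum was 28601 to 33452 in FL1, against 33733 to 38831 in DUKsi. At an unadjusted p under 0.05, 4 of these 6 were lower and 1 higher, against 11.5% and 8.25% of all probe sets. The second probe sets of Inhbb and Nr5a2 passed in limma, with -0.69 (adjusted p = 0.00114) and -0.64 (adjusted p = 0.000288). The brightest probe sets of these genes, also below 0, did not pass. Of 9 oocyte markers 1 fell (Zp3, -0.49), with a sum of 7507 to 9906 in FL1, against 9982 to 11839 in DUKsi. At an unadjusted p under 0.05, 5 of these 9 were lower and 0 higher. Of 3 theca cell markers none passed in limma, although all 3 were lower at an unadjusted p under 0.05. Their sums were 5234 to 8048 in FL1, against 6911 to 10985 in DUKsi. In each line the highest theca sum was that of pool 5. The highest granulosa sum was that of pool 5 in DUKsi and of pool 1 in FL1. Pecam1 of 4 endothelial markers rose (0.58), as did Upk3b of 3 markers of the surface epithelium and mesothelium (1.29). Their sums were 2368 to 2953 and 613 to 1166 in FL1, against 1943 to 2552 and 354 to 1069 in DUKsi. The lowest endothelial sum was that of pool 5 in FL1 and of pool 2 in DUKsi. No macrophage, adipocyte or oviduct marker passed, of 5, 4 and 2 measured, and at an unadjusted p under 0.05 only 2 macrophage markers did, both higher. The macrophage sum was 4469.5 to 5539 in FL1, against 3705 to 5501 in DUKsi, and the adipocyte sum 312 to 3248 in FL1, against 310.0 to 2335 in DUKsi. The oviduct sum was 214 to 495 in FL1, against 291 to 3627 in DUKsi, where the highest value was that of pool 4, the pool in which 8 of the enzymes were highest. DUKsi pool 4 also had the highest DUKsi sum of the macrophage, endothelial and surface epithelium markers. The next highest DUKsi sums of these were 4380, 2286 and 491. Cidec, an adipocyte marker, had a mean under 48.4 in both lines, at 47.5 in FL1 and 36.4 in DUKsi. The part of these cells in the enzymes' difference was not tested.

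RNA quality also differed. The 3′ to 5′ signal ratio of beta-actin, which rises as RNA is shortened, was 1.67 ± 0.423 over the FL1 pools and 1.27 ± 0.0522 over the DUKsi pools (SD, n = 6 each), with every FL1 pool above every DUKsi pool (two-sided exact permutation test, p = 0.00216, which is the lowest that 6 against 6 allow). The Gapdh ratio was 1.53 ± 0.42 over the FL1 pools and 1.28 ± 0.146 over the DUKsi pools (two-sided exact permutation test, p = 0.203). Within the lines, the pools with the lowest enzymes had beta-actin ratios of 1.49 (FL1 pool 5) and 1.26 (DUKsi pool 5). The ranges of the lines were 1.322 to 2.454 in FL1 and 1.180 to 1.317 in DUKsi. The part of RNA quality in the low signals of these pools was not tested. With the beta-actin ratio as a covariate the log2 fold changes of Hmgcs1 and Dhcr7 were 0.82 and 1.43, with adjusted p values of 0.0146 and 0.0103, so that 2 enzymes, Sqle and Sc5d, passed. In the same fit the fold changes of Hmgcs1, Dhcr7, Fdps (0.87), Sqle (0.78) and Sc5d (1.15) were larger than without the covariate. Those of Lss (0.02), Nsdhl (0.17), Cyp51 (0.24), Fdft1 (0.25) and Idi1 (0.39) were smaller, and all 10 were still above 0. Since the ratio separates the lines without overlap, this fit cannot tell RNA quality and line apart. The part of RNA quality in the enzymes' difference was not tested.

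Of the other 11 enzymes of cholesterol synthesis listed, 8 were measured, 2 rose, Mvd and Hsd17b7, and none fell in limma. Of all probe sets 1.83% rose and 1.55% fell. At an unadjusted p under 0.05, 5 of these 8 were higher and 1 lower, against 8.25% and 11.5% of all probe sets. The median log2 fold change was 0.37, and 7 of 8 were above 0. Their summed signal was also lowest in both pools numbered 5, at 7876 in FL1 and 4319 in DUKsi. Mvd, which decarboxylates mevalonate diphosphate, had a lowest, median and highest signal of 329, 407 and 438 in FL1, against 146, 261 and 295 in DUKsi, with no overlap. Its log2 fold change was 0.71 (SE 0.150, limma adjusted p = 0.00819). The second probe set of Mvd, with a mean of 349.6 in FL1, against 283 in DUKsi, overlapped between the lines and gave 0.30 (adjusted p = 0.238). Hsd17b7, the ketoreductase that completes demethylation at carbon 4 and is also known as a luteal 17-beta-hydroxysteroid dehydrogenase, had 3247, 4746 and 5178 in FL1, against 785, 1163 and 2390 in DUKsi. The lines did not overlap, and the log2 fold change was 1.78 (SE 0.209, limma adjusted p = 4.99e-05). A second probe set of Hsd17b7 gave 2.37 (adjusted p = 0.000266). The study's list holds the first of them as well. Ebp, the isomerase between Hsd17b7 and Sc5d, and Lbr, a C14-reductase of the nuclear envelope, are named after their values were seen, with 0.41 (adjusted p = 0.0164) and -0.22 (adjusted p = 0.062). Lbr alone of these 8 was below 0, and its lines did not overlap either, with a highest signal of 970 in FL1 and a lowest of 980 in DUKsi. Of all probe sets 2.24% had every FL1 pool above every DUKsi pool, and 2.39% every FL1 pool below.

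Lists from the surroundings of the pathway had medians near 0. Of all probe sets 1.83% rose and 1.55% fell, and 8.25% and 11.5% were higher and lower at an unadjusted p under 0.05. Of 9 genes of the branches that leave the mevalonate pathway 5 were measured and 1 rose, with a median of -0.07. This was Fnta, a subunit of the protein prenyltransferases, with 2418 ± 164 over the FL1 pools and 1934 ± 90.7 over the DUKsi pools (SD, n = 6 each; log2 fold change 0.32, SE 0.0597, limma adjusted p = 0.00309). Of 11 genes of sterol sensing and SREBP processing 6 were measured, none rose and 1 fell, with a median of -0.02 and with 1 higher and 1 lower at an unadjusted p under 0.05. Erlin1, which takes part in the degradation of HMG-CoA reductase and holds back SREBP, fell by 0.42 (SE 0.0705, limma adjusted p = 0.00144), with 877 ± 80.2 over the FL1 pools and 1168 ± 56.0 over the DUKsi pools (SD, n = 6 each). Srebf2 and Srebf1, the genes of the SREBP factors, are named outside the rule for these lists. Srebf2, whose product acts mainly on cholesterol synthesis, had a log2 fold change of -0.14 (95% interval -0.39 to 0.11, adjusted p = 0.564), and Srebf1 0.04 (-0.22 to 0.29, adjusted p = 0.901). These are transcript levels, while SREBP is controlled to a large part by cleavage of the protein.

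Of 9 genes of sterol uptake and efflux 6 were measured and none passed in limma, with a median of -0.02. At an unadjusted p under 0.05, 0 were higher and 2 lower, against 8.25% and 11.5% of all probe sets. The pair with the highest signals were Abca1, the cholesterol exporter, at 0.01 (95% interval -0.15 to 0.17, adjusted p = 0.973), and Mylip, which marks the LDL receptor for degradation, at -0.20 (95% interval -0.37 to -0.04, adjusted p = 0.154). The dimmer probe sets of Abca1 gave -0.12 and -0.50 (limma adjusted p = 0.766 and 0.129). Of 4 electron donors for the oxidative steps 3 were measured and none passed in limma, with a median of 0.06 and with 1 higher and 0 lower at an unadjusted p under 0.05. Cyb5a, a donor to Sc5d among others, had -0.15 (95% interval -0.31 to 0.02, adjusted p = 0.329), and Cyb5r3, which reduces cytochrome b5, 0.18 (95% interval 0.01 to 0.35, adjusted p = 0.218).

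**Figure D4:**
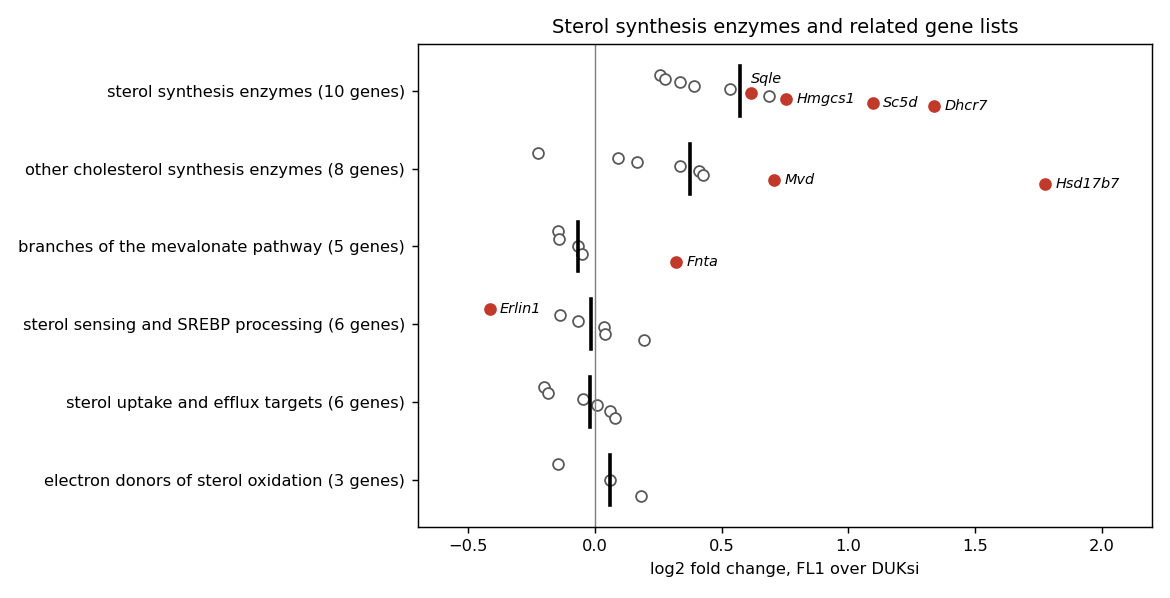
Log2 fold change (FL1 over DUKsi) of each measured gene in the sterol synthesis enzymes and 5 related lists, 1 point per gene, filled and named where the adjusted p was under 0.01, with the median of each list as a vertical bar. The medians are 0.57 for the 10 enzymes and 0.37 for the other enzymes of cholesterol synthesis, and between -0.07 and 0.06 for the other 4 lists.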

How the data were processed

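Ovary RNA of FL1 and DUKsi was measured on 24 Affymetrix mouse expression arrays, 2 for each of the 12 pools. The deposited values are intensities on a linear scale, computed by the authors with MAS5 (Microarray Suite 5.0 in the methods) and scaled by them so that all arrays have a like level. The mean without 2% of the values at each end was 500.1 on every array, array medians were 212 to 244.5, and signals ran from 0.1 to 26218. Of these 20% were under 48.4, where folds are uncertain. No array repeated another. Groups came from the sample titles.

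Signals were averaged within a pool, and the 12 pools were compared on log2 values in R 4.3.3 with limma 3.58.1 (empirical Bayes with a trend). The 64 control probe sets were left out. Probe sets were named through the platform's annotation, where 20380 had 1 gene, 691 several and 1555 none. Named were all 10 enzymes and, from each related list, the genes that passed (in lists without any, the 2 brightest) and, outside this rule, Ebp, Lbr, Srebf1 and Srebf2. The enzymes, lists and tests were chosen with earlier results of these data known. RNA quality ratios were tested by exact permutation. The fit was tested on simulated signals. Promoters came from RefSeq on GRCm38.p6. Tables were made with Python 3.11.15 and pandas 2.3.3.

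Alternatives were each pool's first or second array alone, the mean of log2 values, a random block for the pool, quantile or median scaling, a constant before log2, omission of the dimmest 40% of probe sets, t-tests on linear (as in the methods) or log2 values, limma without trend or robust, the pool number as a block, the beta-actin ratio as covariate, the mean over a gene's probe sets, an adjusted p under 0.05, a fold of 1.5, FL1 pool 3 with DUKsi pool 4 left out, and each pool left out in turn. Leaving out both pools numbered 5 was chosen after seeing the data.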

Additional observations from a re-analysis of the deposited data

Results flagged for a closer look

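Among the 10 enzymes, 1 value stood apart from the other 5 pools of its line. Nsdhl in DUKsi pool 4 had a signal of 1441, and the nearest other DUKsi pool had 1197.5, a gap of 0.681 of the whole range of the line. This is above Dixon's 95% critical value for 6 pools, which by chance about 1 in 20 groups passes. Here 20 groups were looked at, 10 enzymes in each of both lines.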

How the results depend on the processing

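Sc5d passed, and no enzyme fell, under every alternative that was run. Of 290 alternative values for the fold changes of the 10 enzymes, 248 kept their direction and their side of the threshold, 35 lost the call, 6 gained one and 1 reversed. That one was Fdft1, at -0.19 with a gene taken as the mean of its probe sets. Against 4 enzymes that rose, 2 did with the first array of each pool alone, with quantile normalization and with the beta-actin ratio as covariate, and 1 did under the methods' t-test on linear signals, with a t-test on log2 values and with limma without trend. With quantile normalization 1 enzyme and not 2 was free of overlap. Leaving out each pool in turn gave 2 to 5 enzymes.

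Over all probe sets, 413 rose and 351 fell. These counts were 270 and 198 with the second array alone, 700 and 578 with all 24 arrays and the pool as a random block, 636 and 229 with scaling to the same median, and 791 and 773 at an adjusted p under 0.05. Fewer rose with the methods' t-test (256) and with limma without trend (272). With the beta-actin covariate 648 fell, and without both pools numbered 5, a choice made after seeing the data, 215 fell. Leaving out each pool in turn gave 320 to 499 that rose and 246 to 444 that fell.

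The pool number as a block gave 5 enzymes that rose, with Fdps (adjusted p = 0.00142) added, and 334 and 230 over all probe sets. Same-numbered pools correlated at -0.264 to 0.167 in their deviations over the brighter probe sets, and 0 of 6 matched best with their own number. Such correlations cannot show whether these pools were handled together, so a pairing by number was not settled.

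The cause of these differences was not tested. Calls of Hmgcs1 and Sqle lie close to the threshold and were lost in 14 and 17 of their 29 alternatives. That of Dhcr7 was lost in 4 of its 29 alternatives (limma without trend, beta-actin covariate and both t-tests). Values near 48.4 or below are uncertain.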
